A study of Mus musculus with 10 samples.

Results

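NF-κB is a family of dimeric transcription factors, and this report gives the RNA levels of its 5 subunit genes and of 5 genes that it is known to switch on, most of which feed back on it, in lines of the B16OVA mouse melanoma. The subunit genes were Nfkb1, Nfkb2, Rel, Rela and Relb, and the targets were Nfkbia, Nfkbie, Tnfaip3, Sod2 and Birc3. They were taken from the array by gene symbol, with earlier results of these data known, and they are 10 of the 23360 genes that the array named by a single symbol. Each was represented by 1 transcript cluster, the unit in which this array reports a gene. Of the 10, 9 were bright enough to be tested with 16352 genes in all, and Birc3 was not.

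RNA of 10 lines was hybridised to 1 Affymetrix MoGene-2_0-st array per line. B16OVA is the B16 melanoma of C57BL/6 mice made to carry ovalbumin (OVA), and every line derives from it. Whether each line kept that antigen was not examined here. IMM lines (1, 2 and 8) were established from tumours in OVA-immunized B6 mice, for which the labels name no mutation and which are called wild type here. GKO-IMM lines (1, 2 and 3) came from tumours in OVA-immunized mice that lacked interferon-γ. NIMM lines (1, 3 and 4) came from tumours in naive, non-immunized B6 mice, and the parent is the B16OVA line itself. Per the study's design text, IMM lines grew progressively when put back into OVA-immunized mice, and NIMM and GKO-IMM lines did not. No group came from naive interferon-γ-deficient mice, so that for GKO-IMM against NIMM the immunization and the host's deficiency cannot be told apart. Each line is 1 culture, and lines were treated as the replicates, so p-values measure the spread between lines. The age of the mice and whether each line had its own mouse are not given in the labels. Whether each tumour-derived line had its own tumour is not known here.

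In resting cells, NF-κB dimers are held in the cytoplasm by inhibitors of the IκB family, and signals from receptors such as those for TNF, interleukin-1 or microbial products lead an IκB kinase to mark the inhibitor for destruction. The freed dimers bind κB sites in DNA. A second route, driven by receptors of the lymphotoxin type, processes the p100 precursor encoded by Nfkb2 and releases RelB dimers. Several genes of the pathway are themselves its targets, among them those of both precursors, of RelB and of the inhibitors IκBα and A20, and human melanomas are known for NF-κB activity that persists without an added stimulus.

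Because the proteins of this family bind κB sites, promoter windows were searched for the 10-letter κB consensus on both strands. The windows came from RefSeq on build GRCm38.p6 and ran from 250 bases before to 50 bases after each annotated start. Of the 10 genes, 8 had a window, with 11 windows in all, and Nfkb1 and Relb had none. A match lay in a window of 6 of the 8 genes, namely Nfkb2, Rel, Nfkbia, Nfkbie, Sod2 and Tnfaip3, and in none of Rela or Birc3. Over all windows of the annotation, 5.14% of 27025 genes held a match in at least 1 window. The shorter pattern GGGNNNNNCC was in all 8 genes, against 53.5% of all genes. The 4 windows printed here all hold a match. Sod2 and Tnfaip3, which also have a match, and Rela and Birc3, which have none, are not printed. The choice therefore does not show that matches go with the levels. The printed windows read 5′ to 3′ on the strand of the gene, and capitals mark the consensus matches, which may overlap. They are Nfkb2 at its first start (chr19:46304487-46304786, plus strand), Rel (chr11:23770920-23771219, minus strand), Nfkbie (chr17:45555450-45555749, plus strand) and Nfkbia (chr12:55492598-55492897, minus strand).
Nfkb2: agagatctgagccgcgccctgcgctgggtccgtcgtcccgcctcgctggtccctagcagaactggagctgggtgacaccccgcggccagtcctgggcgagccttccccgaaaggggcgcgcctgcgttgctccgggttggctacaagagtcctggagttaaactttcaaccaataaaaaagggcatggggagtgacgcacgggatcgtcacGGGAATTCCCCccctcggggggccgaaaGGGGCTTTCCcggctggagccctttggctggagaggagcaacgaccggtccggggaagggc
Rel: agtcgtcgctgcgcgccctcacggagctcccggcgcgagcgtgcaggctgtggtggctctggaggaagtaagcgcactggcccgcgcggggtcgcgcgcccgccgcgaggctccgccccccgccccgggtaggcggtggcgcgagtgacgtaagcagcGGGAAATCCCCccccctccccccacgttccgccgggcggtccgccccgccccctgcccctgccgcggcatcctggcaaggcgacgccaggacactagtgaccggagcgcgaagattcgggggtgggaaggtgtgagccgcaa
Nfkbie: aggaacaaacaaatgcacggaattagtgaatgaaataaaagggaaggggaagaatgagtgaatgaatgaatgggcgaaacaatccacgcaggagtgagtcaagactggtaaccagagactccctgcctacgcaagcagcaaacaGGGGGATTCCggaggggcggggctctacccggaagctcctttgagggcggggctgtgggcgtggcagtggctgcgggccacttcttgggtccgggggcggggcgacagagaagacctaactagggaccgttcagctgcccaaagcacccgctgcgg
Nfkbia: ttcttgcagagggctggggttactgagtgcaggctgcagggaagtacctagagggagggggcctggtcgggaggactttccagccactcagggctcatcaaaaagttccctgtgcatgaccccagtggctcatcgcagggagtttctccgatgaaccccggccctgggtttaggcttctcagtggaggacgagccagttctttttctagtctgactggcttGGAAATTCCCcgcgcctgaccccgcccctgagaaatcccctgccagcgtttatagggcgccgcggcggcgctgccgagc
In Nfkb2 the matches began 39, 38 and 11 bases before the start, the first pair being overlapping readings of 1 palindrome-like run. In Rel they began 92 and 91 bases before it, in Nfkbie 106 bases and in Nfkbia 29 bases. A match describes the letters and is neither a bound site nor a cause of a level.

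**Figure D1:**
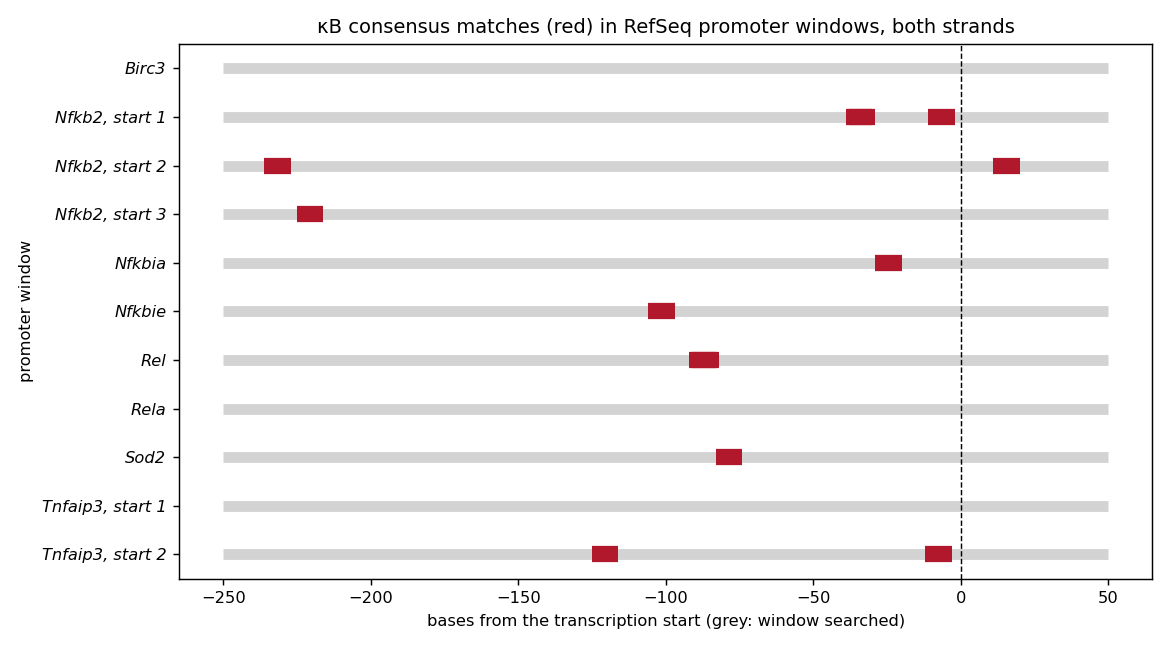
Position of κB consensus matches, in bases from the annotated start (0), in the 11 promoter windows of 8 NF-κB genes, with 1 row per annotated start and starts of 1 gene numbered by ascending coordinate. Matches in Nfkbia (29 bases) and at the first Nfkb2 start (39 and 11 bases) lie close before the start, and the windows of Rela and Birc3 hold none.

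The levels fell into a pattern that did not follow the 3 groups. NIMM 4 and the 3 GKO-IMM lines were higher than the 3 IMM lines and the other NIMM lines in 6 members: Nfkb1, Nfkb2, Rel, Rela, Relb and Nfkbie. That arrangement, picked out after the values were seen, held for 6.75% of all genes tested. NIMM 4 and the GKO-IMM lines stood above NIMM 1 and NIMM 3 alone in 7 members, Nfkbia being the seventh, and in 17.7% of all genes. Nfkbia was arranged otherwise and was highest in the 3 IMM lines. Because NIMM 4 stood apart from its own group, results are given with and without it, and the labels give no reason for it.

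Nfkb1, which encodes the precursor p105 and its product p50, lies on chromosome 3 (135584655 to 135691969, GRCm38). Its intensity was 330.1, 381 and 315 in IMM lines 1, 2 and 8, 475, 475 and 492 in GKO-IMM lines 1, 2 and 3, and 304, 343 and 477 in NIMM lines 1, 3 and 4, with 343 in the parent. The GKO-IMM lines lay close together above every IMM line, and NIMM 4 lay among them. On the log2 scale it averaged 8.41 ± 0.14 in IMM, 8.91 ± 0.03 in GKO-IMM and 8.52 ± 0.34 in NIMM lines (SD, n = 3 each). The spread was thus largest in the NIMM group, where NIMM 4 exceeded the mean of the other lines by 0.56.

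Nfkb2 (chromosome 19, 46300994 to 46312400) encodes p100, both an inhibitor of RelB and the precursor of p52. Its intensity was 143, 180.3 and 143 in the IMM lines, 219, 213 and 228 in the GKO-IMM lines, and 150.1, 148 and 239 in the NIMM lines, with 128 in the parent. The highest line was NIMM 4 and the lowest was the parent, and IMM 2 was the highest of the IMM lines by a clear margin. Relb (chromosome 7, 19606217 to 19629438) encodes the subunit that p100 holds back. It had intensities of 101, 109.9 and 82.8 in the IMM lines, 131, 120.3 and 135 in the GKO-IMM lines, and 81.6, 84.2 and 142 in the NIMM lines, with 74.7 in the parent. Relb spanned the widest range of the 10 genes, 0.93 on the log2 scale, again with NIMM 4 highest and the parent lowest.

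Rel (chromosome 11, 23736847 to 23770969) encodes c-Rel, best known from lymphocytes. It had intensities of 163, 145 and 163 in the IMM lines, 194, 187 and 197 in the GKO-IMM lines, and 147, 163 and 175 in the NIMM lines, with 145 in the parent. Rel was the 1 subunit gene whose GKO-IMM lines all exceeded NIMM 4 as well. Rela (chromosome 19, 5637442 to 5648134) encodes p65, the main activating partner of p50. Its intensity was 678, 722 and 732 in the IMM lines, 791, 773 and 843 in the GKO-IMM lines, and 696, 685 and 849.5 in the NIMM lines, with 649 in the parent. Rela was the subunit gene with the narrowest range, 0.39 on the log2 scale. Intensities of different genes come from different probes and were not compared.

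**Figure D2:**
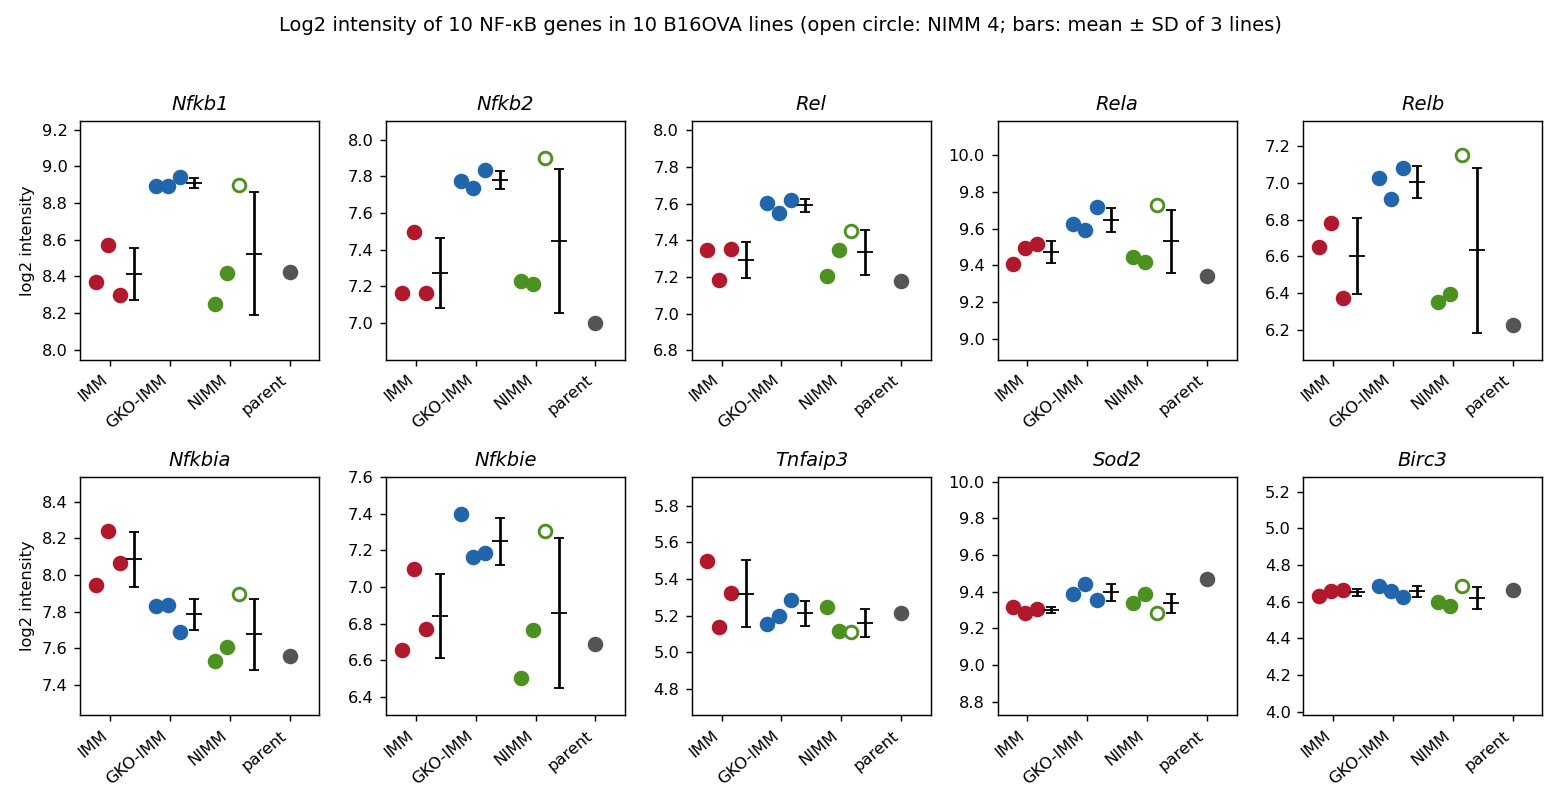
Log2 intensity (vertical axis, 1 panel per gene, all panels spanning the same range) of the 10 NF-κB genes in IMM, GKO-IMM and NIMM lines and the parent, with 1 point per line, the group mean with its SD for n = 3, and NIMM 4 as an open circle. NIMM 4 and the GKO-IMM lines sit above the IMM lines and the other NIMM lines for the 5 subunit genes and Nfkbie, and the 3 IMM lines sit highest for Nfkbia.

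Among the inhibitors, Nfkbie (chromosome 17, 45555700 to 45563169), which encodes IκBε, followed the subunit genes. Its intensity was 101, 137 and 109 in the IMM lines, 169, 144 and 146 in the GKO-IMM lines, and 90.8, 109 and 159 in the NIMM lines, with 103 in the parent. IMM 2 came nearest to the GKO-IMM lines without reaching them. Nfkbia (chromosome 12, 55489409 to 55492647) encodes IκBα, the inhibitor that NF-κB resynthesises within its fastest feedback loop. It had intensities of 247, 303 and 269 in the IMM lines, 228, 228 and 206 in the GKO-IMM lines, and 185, 195 and 238 in the NIMM lines, with 188 in the parent. All 3 IMM lines exceeded all 6 other tumour-derived lines, although IMM 1 did so over NIMM 4 by a small margin. Tnfaip3 (chromosome 10, 19000910 to 19015410) encodes A20, a ubiquitin-editing enzyme that shuts off signalling upstream of the IκB kinase. It was dim, at 45.3, 35.2 and 39.98 in the IMM lines, 35.6, 36.8 and 39.0 in the GKO-IMM lines, and 38.0, 34.7 and 34.6 in the NIMM lines, with 37.1 in the parent. The groups overlapped in Tnfaip3, and the median intensity of all transcript clusters was 31.9 to 32.5 on the arrays.

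Sod2 (chromosome 17, 13007839 to 13018119) encodes the mitochondrial manganese superoxide dismutase, a protective NF-κB target. Its intensity was 637, 623 and 633 in the IMM lines, 669.9, 696 and 655 in the GKO-IMM lines, and 648, 668 and 622 in the NIMM lines, with 709.6 in the parent. Sod2 varied little, over 0.19 on the log2 scale, and was highest in the parent. Birc3 (chromosome 9, 7847468 to 7873205) encodes cIAP2, a ubiquitin ligase of TNF receptor complexes. Its intensities were 24.8, 25.3 and 25.4 in the IMM lines, 25.8, 25.3 and 24.7 in the GKO-IMM lines, and 24.3, 23.8 and 25.8 in the NIMM lines, with 25.4 in the parent. All were under the 26.7 that a gene's mean had to reach to be tested.

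IMM against GKO-IMM asks how lines differ after growth in immunized hosts with and without interferon-γ. Here 7 of the 9 members tested had every IMM line below every GKO-IMM line, against 12.5% of all genes tested. Nfkbia had every IMM line above every GKO-IMM line, as did 13.3% of all genes. The differences, IMM minus GKO-IMM on the log2 scale, were -0.50 ± 0.14 for Nfkb1, -0.51 ± 0.16 for Nfkb2, -0.41 ± 0.18 for Relb, -0.41 ± 0.18 for Nfkbie and -0.30 ± 0.08 for Rel (SE). For Rela it was -0.17 ± 0.08, for Sod2 -0.09 ± 0.06, for Nfkbia 0.30 ± 0.10 and for Tnfaip3 0.11 ± 0.09. The median over the members was -0.30, beside 0.01 over all genes. With limma, none of the 9 members passed a Benjamini-Hochberg adjusted p of 0.05 over all genes tested, as 1.17% of genes did. The smallest adjusted p of limma was 0.085, for Rel, followed by 0.102 for Nfkb1. At an unadjusted p under 0.05 there were 6 members, against 17.2% of all genes.

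All groups share 1 estimate of the spread in that fit, so the distance of NIMM 4 from its group widens the error of the comparison of IMM with GKO-IMM, in which it takes no part. Without NIMM 4 the same differences stood on smaller errors. Nfkb1, Nfkb2, Rel and Relb then passed as lower in IMM lines, as 4.11% of genes did, and Nfkbia passed as higher, as 3.28% did. The adjusted p of limma for Nfkb1 was then 0.00293, the lowest of 0.00293 to 0.283 over 20 alternative settings. Nfkbie did not pass without NIMM 4 (adjusted p of limma = 0.0519).

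GKO-IMM against NIMM sets lines from immunized interferon-γ-deficient hosts beside lines from naive wild-type hosts. All 9 members tested had a mean above 0 in this difference, by 0.39 ± 0.14 for Nfkb1, 0.33 ± 0.16 for Nfkb2, 0.38 ± 0.18 for Relb, 0.39 ± 0.18 for Nfkbie and 0.26 ± 0.08 for Rel (log2, SE). Rela had 0.12 ± 0.08, Nfkbia 0.11 ± 0.10, Sod2 0.06 ± 0.06 and Tnfaip3 0.05 ± 0.09. Rel was the 1 member whose groups did not overlap, as for 11.1% of all genes tested in that direction. The median over the members was 0.26, beside 0.01 over all genes. None of the members passed limma's adjusted threshold, which 0.122% of genes did, and 3 had an unadjusted p under 0.05, against 13.9% of genes.

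Leaving out NIMM 4 removes the NIMM line with the highest level of 7 of the 9 members, so it raises this difference by construction as well as lowering its error. The differences against NIMM 1 and NIMM 3 were 0.57 ± 0.09 for Nfkb1, 0.56 ± 0.10 for Nfkb2, 0.63 ± 0.10 for Relb, 0.61 ± 0.13 for Nfkbie and 0.31 ± 0.08 for Rel (log2, SE). These 5 passed as higher in GKO-IMM lines, as 4.23% of genes did. Rela (0.22 ± 0.07) and Nfkbia (0.22 ± 0.09) did not pass. For Nfkb1 the adjusted p of limma was 0.00337, at the low end of 0.00337 to 0.607 over 20 alternative settings.

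**Figure D3:**
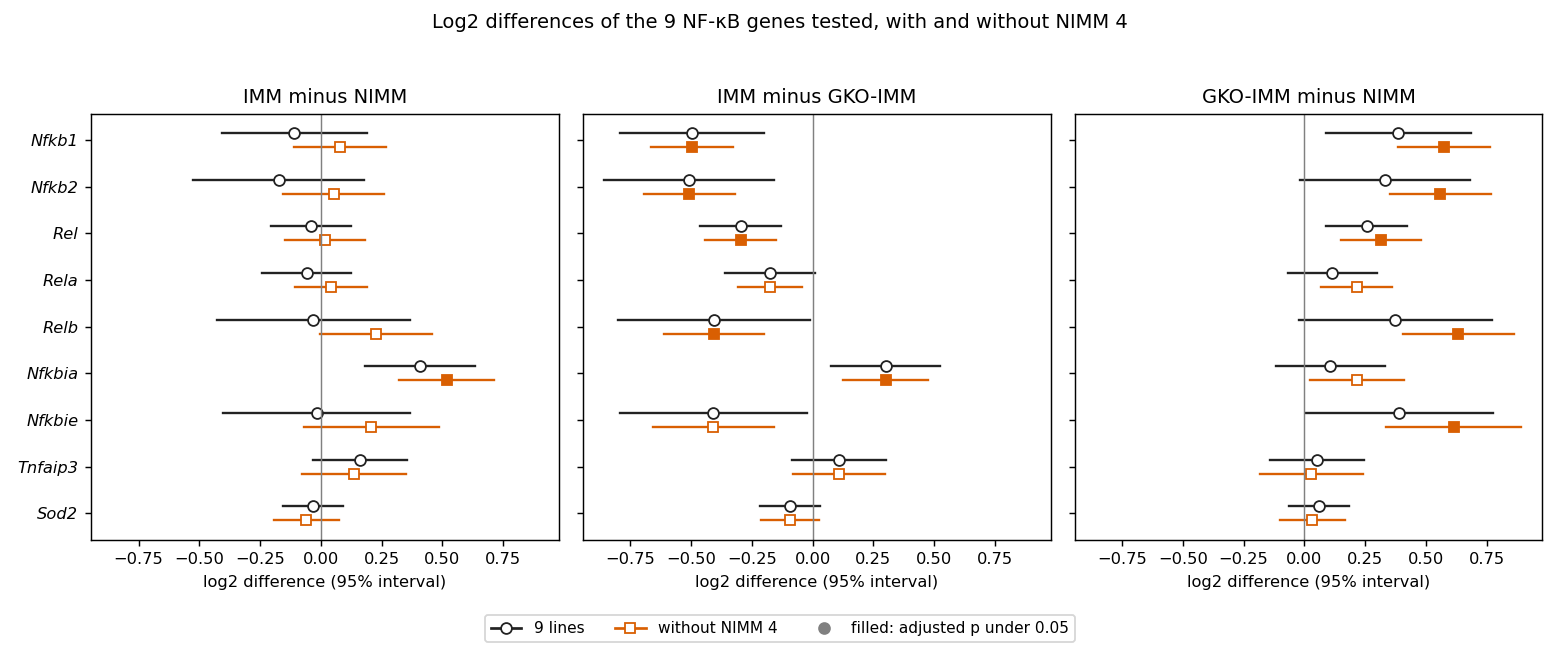
Log2 differences between groups with 95% intervals for the 9 NF-κB genes tested, from the fit of 9 lines (circles) and without NIMM 4 (squares), filled where the adjusted p was under 0.05. No circle is filled, Nfkbia is filled among the squares of IMM minus NIMM, and 5 genes are filled in each of the other comparisons.

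IMM against NIMM asks what distinguishes lines from immunized and naive wild-type hosts. Nfkbia was the member that stood out, at 0.41 ± 0.10 (log2 difference, SE), with every IMM line above every NIMM line, as in 11.3% of all genes. Its adjusted p of limma was 0.136, so it did not pass, and neither did any of the other 8 members, against 0.428% of genes. At an unadjusted p under 0.05 it was the 1 member of 9, against 14.1% of genes. The other members overlapped between the groups. Their differences ran from -0.17 ± 0.16 for Nfkb2 to 0.16 ± 0.09 for Tnfaip3, with a median over the 9 members of -0.03 beside 0.02 over all genes. Leaving out NIMM 4 removes the highest NIMM line for Nfkbia and for 6 other members, so it raises their differences here by construction as well. Without NIMM 4, Nfkbia passed as higher in IMM lines at 0.52 ± 0.09, as 0.165% of genes did. In that fit 6 members lay on the other side of 0 from their values with NIMM 4, and none of the 6 passed. Relb was at 0.23 ± 0.10, Nfkbie at 0.21 ± 0.13, Nfkb1 at 0.08 ± 0.09, Nfkb2 at 0.05 ± 0.10, Rela at 0.04 ± 0.07 and Rel at 0.02 ± 0.08 (log2, SE). The members above 0 were then 8 of 9, against 2 of 9 with NIMM 4, and their median was 0.08.

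Set against the mean of the GKO-IMM and NIMM groups, which did not grow on re-challenge, IMM lines had Nfkbia higher by 0.35 ± 0.09 (log2, SE). Every IMM line was above all 6 other lines, which held for 3.84% of genes. Its adjusted p of limma was 0.0987, none of the 9 members passed, and 0.807% of genes did. At an unadjusted p under 0.05 there were 4 members, against 16.4% of genes. The differences were -0.34 ± 0.14 for Nfkb2, -0.30 ± 0.12 for Nfkb1 and -0.17 ± 0.07 for Rel. Without NIMM 4, which again raises the difference by construction, Nfkbia passed at 0.41 ± 0.07, as 0.624% of genes did (adjusted p of limma 0.0168, in a range of 0.0168 to 0.268 over 20 alternative settings). The 4 comparisons share their lines and are not independent of each other.

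Other ways of handling the uneven spread gave members that passed in some comparisons and none in others. With array weights from limma, which give less weight to lines that deviate from their group, 3 members passed in IMM against GKO-IMM (Nfkb1, Nfkb2 and Rel), beside 6.34% of genes. With the same weights 5 passed in GKO-IMM against NIMM, beside 7.44% of genes, and Nfkbia passed in IMM against NIMM and against both other groups, beside 1.02% and 1.62%. When each pair of groups was fitted alone, 4 members passed in IMM against GKO-IMM, beside 5.97% of genes. None passed that way in GKO-IMM against NIMM or in IMM against NIMM (limma, with 2 and 1 members at an unadjusted p under 0.05), and the share of all genes was 0.104% and 0.0795%. A fit with the line number as a replicate block, although it is not known here whether the numbers pair the lines, gave 2 members in IMM against GKO-IMM and 5 in GKO-IMM against NIMM, beside 3.58% and 5.6% of genes. Under the block none passed in IMM against NIMM or against both other groups, Nfkbia included (limma, with 2 and 1 members at an unadjusted p under 0.05), beside 0.177% and 0.538% of genes.

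Against the cultured parent, which has 1 array and enters no test, all 9 tumour-derived lines were higher in 4 members: Nfkb2, Rel, Rela and Relb. Such an arrangement held for 13.5% of all genes. Sod2 was lower than the parent in all 9 lines, as were 12.4% of genes. The excess over the parent was smallest for Rel, where IMM 2 (145.1) and the parent (144.8) nearly coincided, and largest for Relb, where NIMM 4 exceeded the parent by 0.93 on the log2 scale.

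The genes upstream of NF-κB and its other targets did not share the pattern in their list medians. Of 17 ligands and receptors 14 were tested, of 25 adaptors and kinases 23, of 15 other inhibitors 13, and of 32 other targets 28. None passed in any of the 4 comparisons with limma, where 0.122% to 1.17% of all genes did. In each comparison 1 to 6 genes of a list had an unadjusted p of limma under 0.05, against 13.9% to 17.2% of all genes. Their list medians in IMM minus GKO-IMM were 0.02, -0.01, 0.03 and 0.01 on the log2 scale, beside -0.30 for the subunits and feedback targets. In GKO-IMM minus NIMM they were 0.09, 0.0015, -0.07 and 0.06, beside 0.26. Many genes of these lists were dim in every line, such as Tnf (30.2 to 37.2) and Vcam1 (31.0 to 34.7). The array medians were 31.9 to 32.5. A list median over such genes can lie near 0 whatever the brighter genes do, so it does not show that the targets were level.

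The genes named from these lists are among those with the smallest p in a comparison, and none of them passed with all 9 lines. Tlr3, a receptor for double-stranded RNA, had intensities of 218, 223 and 247 in the IMM lines and 158, 152 and 174 in the GKO-IMM lines. Its difference was 0.51 ± 0.12 on the log2 scale (adjusted p of limma = 0.0726), and the groups did not overlap. Nfkbib, which encodes IκBβ, had 189.8, 224 and 192 in the IMM lines and 246, 257 and 264 in the GKO-IMM lines, a difference of -0.34 ± 0.10. IκBβ thus lay on the side of IκBε and not of IκBα. Other genes with small p in this comparison included the adaptor Traf3ip2 (0.28 ± 0.07), the hyaluronan receptor Cd44 (0.24 ± 0.07) and the kinase adaptor Tab1 (0.20 ± 0.06). They also included the TWEAK receptor Tnfrsf12a (-0.45 ± 0.13), Tnfaip2 (-0.46 ± 0.14) and the macrophage growth factor Csf1 (-0.44 ± 0.14). In GKO-IMM minus NIMM they were Nos2, the inducible nitric oxide synthase (0.25 ± 0.06), Ier3 (0.39 ± 0.15) and Pdlim2, which encodes a ubiquitin ligase for p65 (-0.28 ± 0.08).

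Without NIMM 4, 10 of the 77 different genes tested in these lists passed in IMM against GKO-IMM. Tlr3, Traf3ip2 and Cd44 were higher in IMM lines, 3.9% of the 77 beside 3.28% of all genes. Tnfrsf12a, the TNF receptor Tnfrsf1a, Nfkbib, Csf1, Ier3, the autophagy adaptor Sqstm1 and Tnfaip2 were lower, 9.09% beside 4.11%. In GKO-IMM against NIMM, Tnfrsf1a, the kinase adaptor Tab3, Csf1, Ier3, Nos2 and Sqstm1 passed as higher, 7.79% beside 4.23% of all genes. Pdlim2 passed as lower, 1.3% beside 3.5%. Sqstm1 showed the same arrangement as the subunits, at 2659, 3202 and 2853 in the IMM lines, 3680.2, 3555 and 3459 in the GKO-IMM lines, and 2733, 2819 and 4054 in NIMM lines 1, 3 and 4. It was not alone, since Nfkbib, Ier3, Tnfrsf1a, Tnfrsf12a, Csf1, Tnfaip2, Ltbr, Tlr4, Traf6, Tab2, Tab3 and Cyld were arranged likewise. Tlr3, Cd44 and Tnip1 were among those with the reverse arrangement. The subunits' arrangement held for 6.75% of all genes tested, and its share of the 77 was not counted.

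A list of stress-response genes was on average high in the same 4 lines. It holds Atf4, targets of ATF4 and genes of the unfolded protein response such as Hspa5 and Xbp1. Not every gene followed, as Hspa5 was 731 in GKO-IMM 3 and 782 to 820 in the IMM lines. The mean of the list's 19 tested genes, each centred on its own mean over 10 lines, was 0.92 in NIMM 4 and 0.54 to 0.59 in the GKO-IMM lines. It was -0.39 to -0.19 in the IMM lines, -0.55 and -0.47 in NIMM 1 and NIMM 3, and -0.67 in the parent. The same mean over the 9 NF-κB members was 0.19 in NIMM 4, 0.15 to 0.19 in the GKO-IMM lines, -0.09 to 0.03 in the IMM lines, -0.21 and -0.15 in NIMM 1 and NIMM 3, and -0.21 in the parent. The part of the stress response in the levels of the NF-κB genes was not tested. The lists of ligands and receptors, adaptors and kinases, other inhibitors and other targets stayed between -0.10 and 0.08 in every line.

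**Figure D4:**
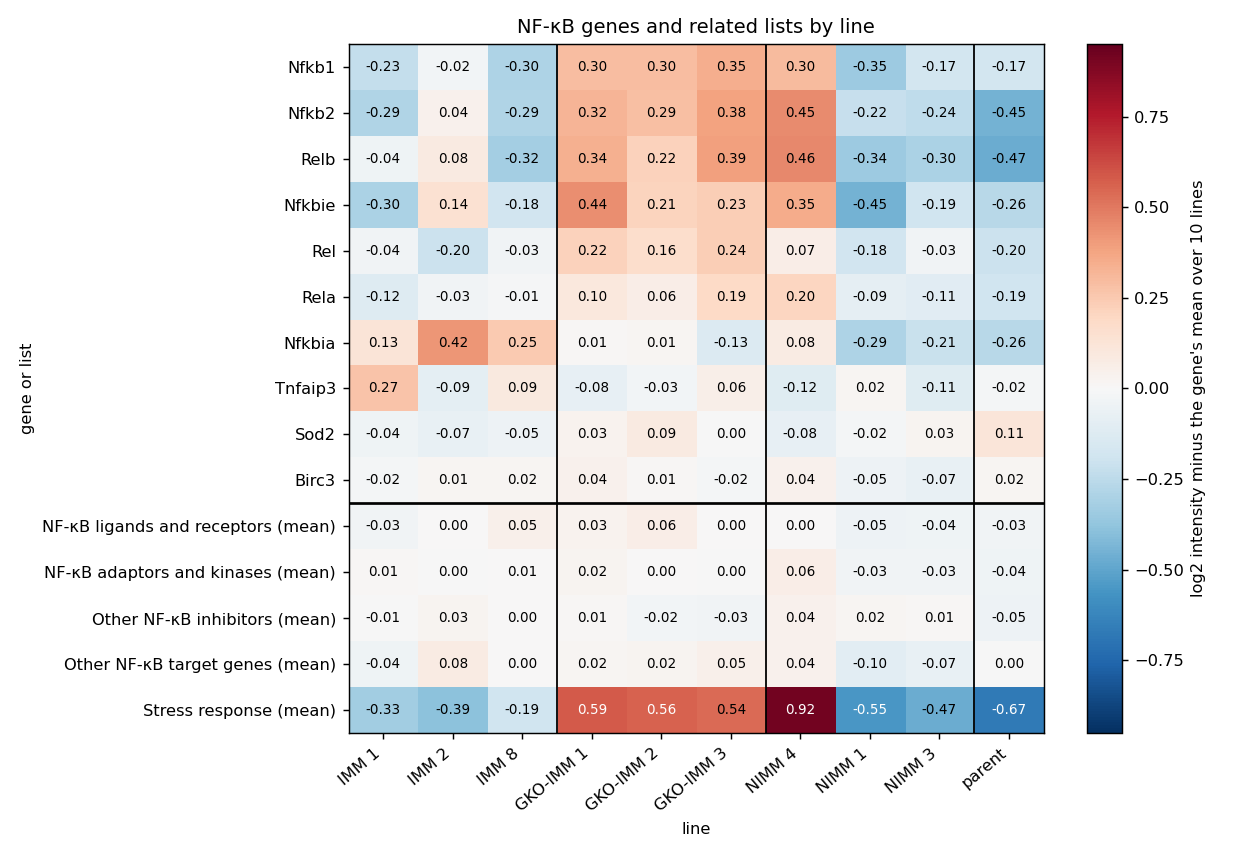
Log2 intensity of each NF-κB gene minus its mean over the 10 lines (rows above the thick line), and the mean of the same quantity over the tested genes of 5 related lists, by line. The 3 GKO-IMM lines and NIMM 4 are high in the subunit genes, in Nfkbie and in the stress response (0.54 to 0.92), Nfkbia is highest in the 3 IMM lines, and the other NF-κB lists stay between -0.10 and 0.08.

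Over the 10 lines the genes outside the lists whose levels ran most like the members' mean were Secisbp2l (Pearson r = 0.987), Dusp18 (0.985), Nars (0.976), Syde1 (0.967) and Bcat2 (0.965). They were the highest of 16227 genes compared, of which 159 had an r of 0.9 or more. The r is a description with no test, since the lines fall into a high and a low set and all genes share the same 10 arrays. Nars, the cytosolic asparaginyl-tRNA synthetase, had intensities of 1468, 1659 and 1598 in the IMM lines, 2249, 2329.7 and 2188 in the GKO-IMM lines, and 1281, 1386 and 2484 in NIMM lines 1, 3 and 4.

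The lines carried melanocyte RNA as labelled. All 8 melanocyte markers were over the intensity filter in every group, between 565 and 8362. Of the markers of other cell types, 3 of 8 myeloid, 2 of 6 T cell, 4 of 6 fibroblast and 3 of 5 endothelial genes were over the filter, and Ptprc, Adgre1, Lyz2, Cd14 and Fcgr1 were under it. The summed intensity of the myeloid markers was 238 to 251 in IMM, 226 to 250.5 in GKO-IMM and 233 to 266 in NIMM lines, with 329 in the parent and 233 in NIMM 4, so this sum did not separate the high lines from the low ones. Of the 33 marker genes measured, 2 did, Mitf and Sox10, and the other melanocyte markers did not. Both were lower in the high lines. The share of all genes lower in this way was not counted, so the 2 of 33 cannot be read as more than that share. The 6.75% of genes with NIMM 4 and the GKO-IMM lines above the other tumour-derived lines is for the other direction and leaves out the parent. Mitf, the master regulator of the melanocyte lineage, was 1360.4 in NIMM 4 and 1457 to 1524 in the GKO-IMM lines, against 1656 to 1965 in the IMM lines, 1784 and 1912 in NIMM 3 and NIMM 1, and 1882 in the parent. Sox10, which acts upstream of Mitf, was 593 in NIMM 4 and 565 to 597 in the GKO-IMM lines, against 609.5 to 649 in the IMM lines, 685 and 736 in NIMM 3 and NIMM 1, and 745 in the parent. Without NIMM 4 both passed as lower in GKO-IMM than in NIMM lines, as 3.5% of genes did. The differences were -0.30 ± 0.08 for Mitf and -0.29 ± 0.07 for Sox10 (log2, SE). With all 9 lines neither passed. Their part in the levels of the NF-κB genes was not tested. RNA was measured in whole cultures, where fewer cells of a kind and less RNA per cell cannot be told apart.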

How the data were processed

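RNA of 10 lines was measured on 1 MoGene-2_0-st array each. In the deposited table the raw columns, so named per the file headers, give a linear intensity for each transcript cluster. The authors' normalized columns are on the log2 scale: they equal log2 intensity after subtraction of the 10-array median for that transcript cluster, and the series value table repeats them. How arrays were background-corrected and summarized, and with which software, is not given in the sources used here.

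Analyses used log2 of the intensities with no further normalization, as median intensities ran from 31.9 to 32.5. Gene symbols were updated with a RefSeq table on GRCm38.p6, and a gene with several transcript clusters took the one brightest on average in the 9 established lines. Genes under percentile 30 of mean log2 intensity (4.74) were left out, which left 16352 of 23360. limma 3.58.1 (lmFit and eBayes) in R 4.3.3 fitted the 9 established lines in 3 groups of 3, with 4 contrasts and Benjamini-Hochberg adjustment over all genes tested (threshold 0.05, two-sided). There were 6 residual and 5.25 prior degrees of freedom, and precision is limited by how many arrays there are. A copy of the fit was tested on simulated data for GKO-IMM minus NIMM, where 80% of changes of 0.5 (log2) were recovered among 16352 genes. Of its calls, 4.79% were unchanged genes. The simulated spread was equal in all groups, with no line set apart like NIMM 4, and the changed genes were drawn at random. The 80% therefore does not give the recovery for the NF-κB genes, whose errors reached 0.18.

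All 10 members are named in every comparison. Of the other NF-κB lists, any passing gene and, per comparison and list, the 3 genes of lowest p could be named, beside the 5 genes most like the members' mean. The members and lists were chosen with earlier results of these data known. Values without NIMM 4 are one of the alternatives tried, which covered normalization, the filter, background, variance prior, array weights, lines in the fit, the line number as a block and each line left out.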

Additional observations from a re-analysis of the deposited data

How the results depend on the processing

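No member passed in any comparison under quantile normalization, median centring, no filter or the stricter filter (which drops Tnfaip3), averaged transcript clusters, a trended and robust prior, or a changed background. Neither scaling reversed a member. Array weights gave 1 member passing in IMM minus NIMM, 3 in IMM minus GKO-IMM, 5 in GKO-IMM minus NIMM and 1 in IMM minus both. A fit of only the groups compared gave 4 in IMM minus GKO-IMM and 0 in the others. Leaving out 1 line gave 0 to 1, 0 to 5, 0 to 5 and 0 to 1, above 0 without NIMM 4 alone. The cause was not tested beyond the smaller error, and in the comparisons with NIMM lines the omission also moves the NIMM mean. Whether the line number is a pairing is not known here. Deviations of lines of 1 number from their group means correlated from -0.13 to 0.12. With 3 lines per group and NIMM 4 apart from its own, this cannot decide the question. The replicate block gave 2 members in IMM minus GKO-IMM, 5 in GKO-IMM minus NIMM and 0 in the others. Under it, differences near 0 reversed in IMM minus NIMM, to 0.15 for Nfkb1, 0.0823 for Nfkb2, 0.22 for Nfkbie, 0.0639 for Rel, 0.0419 for Rela and 0.39 for Relb, and Relb in IMM minus both was at 0.0615. Array weights reversed Nfkbie (0.0851), Rel (0.0139), Rela (0.0111) and Relb (0.0870) in IMM minus NIMM. With 1 line left out, IMM minus NIMM ran from -0.25 to 0.0779 for Nfkb1, -0.29 to 0.0525 for Nfkb2, -0.20 to 0.21 for Nfkbie, -0.11 to 0.0177 for Rel, -0.11 to 0.0411 for Rela and -0.17 to 0.23 for Relb. Genes passing over all genes ranged from 13 to 167 (70 as reported), 90 to 1037 (191), 5 to 1217 (20) and 52 to 265 (132) over the settings with all lines, and from 21 to 76, 30 to 1208, 6 to 1264 and 39 to 304 with 1 line left out. Of the 20 genes in GKO-IMM minus NIMM 6 were higher, against 2 of 12 under quantile normalization. Without a filter, Birc3 differed by 0.03, -0.01, 0.04 and 0.01 (log2) and did not pass.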

Other observations

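Cxcl10, a chemokine induced by both interferon and NF-κB and a member of the list of other targets, was singled out after its values were seen. Its intensity was 151, 488 and 237 in IMM lines 1, 2 and 8, 181, 159 and 176 in the GKO-IMM lines, and 119, 119 and 335 in NIMM lines 1, 3 and 4, with 48.3 in the parent. The highest lines were IMM 2 and NIMM 4, and every tumour-derived line was above the parent, as in 13.5% of all genes tested. Ccl5, another chemokine of that list, had 485 in the parent and 80.6 to 175 in the 9 tumour-derived lines. All 9 were below the parent in 12.4% of all genes tested. These levels were not tested against the NF-κB members.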
